A study of Mus musculus with 15 samples.

Results

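Mouse skeletal muscle stem cells after 60 minutes of tissue dissociation (T60) were compared with those of intact tissue (T0) by bulk RNA-seq. The comparison took the 4 T60 libraries (60A to 60D) and the 4 T0 libraries (0A to 0D), which are 8 of the 22 bulk libraries in the study's count table, and all 8059 genes that the table lists. T0 is labelled as intact tissue and T60 as dissociated tissue. Both groups are labelled as fixed, and the protocols name PFA as the fixative and collagenase with dispase, which digest the matrix around cells, as the dissociation agents. The labels give no unit for the numbers 0 and 60, which were taken as minutes, and no strain, age or sorting strategy was given for the bulk cells in the sources used here. They list 1 sample per time point, so nothing says whether the 4 libraries of a group came from separate animals. All p-values therefore measure a spread between libraries, which may be technical, and the main fit took it from all 22 bulk libraries. The series has 15 labelled samples, of which those of single nuclei and single cells were not analysed here.

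Muscle stem cells, or satellite cells, lie quiescent between the muscle fibre and its basement membrane and leave quiescence when the tissue is damaged. Cells that receive growth factor, cytokine, calcium, mechanical or stress signals first transcribe immediate early genes, which need no new protein synthesis because the factors that switch them on, such as SRF and CREB, are already present. Many immediate early genes encode transcription factors of the AP-1, EGR and NR4A families, and others encode phosphatases, mRNA decay factors and inhibitors that end the signal. Enzymatic isolation of cells from solid tissue is known to induce such genes.

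At T60, 2252 of 8059 genes were higher than at T0 and 2281 were lower, at an adjusted p under 0.05 in edgeR's quasi-likelihood test (27.9% and 28.3% of the genes tested). Every count of list members below is to be read against these shares. At least 2-fold changes numbered 764 up and 608 down (9.48% and 7.54%), and changes of at least 16-fold 39 up and 20 down. The first principal component of log CPM over the 8 libraries held 82.5% of the variance. Column totals over the listed genes were 2974294 to 9745758 counts at T0 and 13006535 to 17938116 at T60. The satellite cell markers chosen for the check (9 of 9 listed) were present, and the 43 listed satellite cell genes summed to 17200 to 22510 CPM at T0 and 23770 to 25280 CPM at T60, where CPM is the count scaled to library size with TMM factors. The median log2 fold change over all genes was -0.03. Scaling by column totals alone moved it to -0.35 and gave 1320 rises and 4022 falls, so rises made up 24.7% of the calls in place of 49.7%.

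Reads over genes taken as foreign to these cells, called background here, differed in density between the groups. For this, 52 long genes of brain, retina, airway or epithelium were chosen, of which the table lists 9. These 9 may have entered the table through libraries where their reads are high, which was not tested. Their median density was 2.94, 1.23, 3.24 and 1.77 CPM per exonic kb in 0A to 0D. It was 0.304, 0.204, 0.166 and 0.155 CPM per kb in 60A to 60D, so the groups did not overlap (2.30 ± 0.951 at T0 and 0.207 ± 0.0678 at T60, mean ± SD, n = 4). The density of the median listed gene was 9.36 CPM per kb at T0 and 9.75 at T60. The part of this background in the falls was not tested as such. As an alternative, the density times exon length was subtracted from each gene's counts in each library and the test was repeated. This left 1571 rises and 1283 falls (19.5% and 15.9%), of which 1465 and 947 were calls of the first test in the same direction. Of the rises and falls of at least 2-fold, 755 and 238 were still called in the same direction. With the density higher at T0, the subtraction took more from the T0 libraries, which favours rises in genes low at T0. A rise that stayed called in such a gene is therefore no independent check of it. The 9 background genes did not move alike: 8 fell and 0 rose, with log2 fold changes from -10.85 to 0.28. They summed to 601 to 928 CPM at T0 and still to 326 to 499 CPM at T60. Whether each of these 9 genes is foreign to the cells was not tested. After subtraction 7 of them could be tested, of which 2 were called up and 3 down, so the subtraction did not level them.

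**Figure D1:**
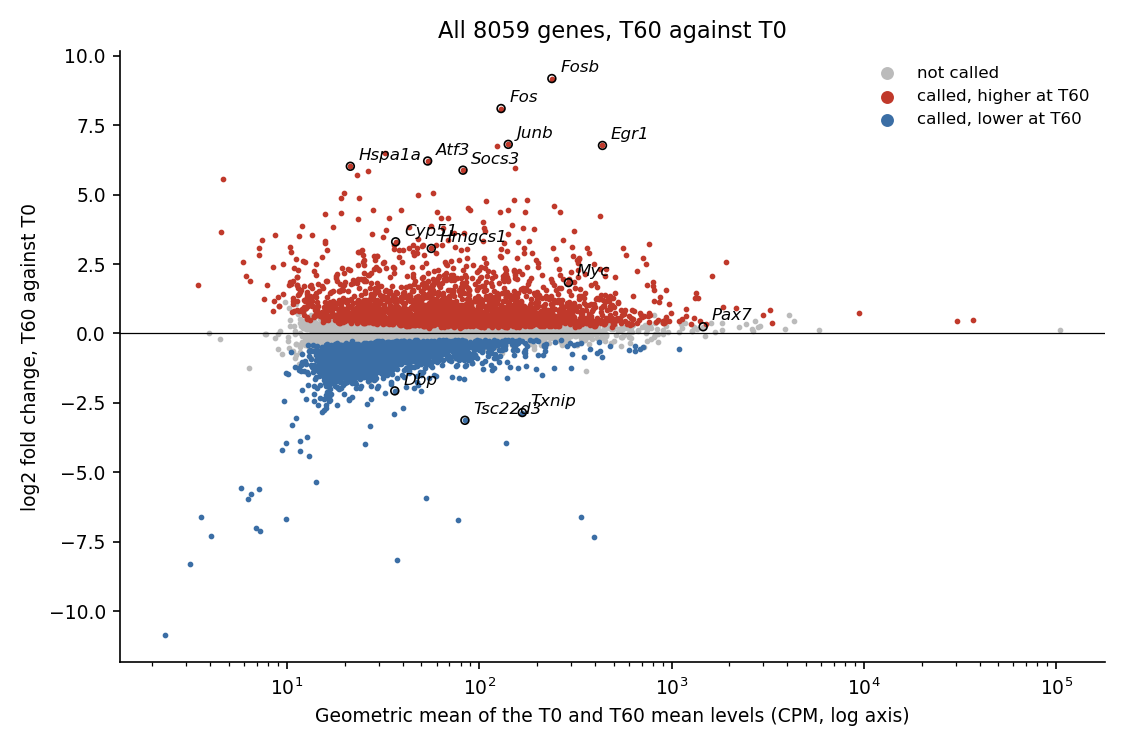
Each point is 1 of the 8059 genes, placed by its mean level (geometric mean of the T0 and T60 mean CPM, log axis) and its log2 fold change, T60 against T0. Red and blue mark genes called higher and lower at an adjusted p under 0.05. Fosb lies highest at 9.18, Pax7 lies near 0, and the lowest points are genes at a few CPM or predicted models.

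The transcription factor genes of the immediate early response had the largest rises. Of 27 listed members of the AP-1, EGR, NR4A and KLF families and their kin, 26 rose and 0 fell. Their median log2 fold change was 4.22 against -0.03 for all genes. The 4 T60 libraries lay above the 4 T0 libraries in all 26, and in 27.1% of all genes. The counts of 26 up and 0 down were the same after background subtraction, which tends to enlarge rises in genes low at T0. Fosb, which encodes a FOS-family partner of JUN in AP-1, had 8.47, 5.91, 18.2 and 7.82 CPM in 0A to 0D. Its levels in 60A to 60D were 7326, 4891, 6098 and 4260 CPM. The lowest T60 library was thus far above the highest T0 library, and the log2 fold change was 9.18 ± 0.44 (SE; adjusted p = 1.26e-12). Fos, the founding member of that family, had 9.03, 4.87, 11.2 and 6.65 CPM at T0. Fos had 2678, 1707, 3205 and 920 CPM at T60, a rise of 8.10 ± 0.46 (adjusted p = 1.02e-11) with a spread among the T60 libraries that was wide beside that of Fosb.

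Egr1, a zinc finger factor induced by ERK signalling, had 42.5, 27.1, 57.0 and 41.2 CPM at T0 and 5730, 3892, 5937 and 2695 CPM at T60. This was a log2 rise of 6.77 ± 0.29 (adjusted p = 4.29e-13) with no overlap. Junb rose by 6.81 ± 0.31 and the orphan nuclear receptor gene Nr4a1 by 6.76 ± 0.39. Csrnp1, a nuclear protein gene induced by AXIN1, rose by 6.50 ± 0.38. Jun rose by 4.22 ± 0.36, from 97.7 ± 24.3 to 1826 ± 760 CPM (SD, n = 4). Atf3, a stress-induced factor that pairs with JUN proteins, had 10.3, 3.30, 7.54 and 4.41 CPM at T0 and 588, 451, 414 and 365 CPM at T60, a rise of 6.21 ± 0.38 (adjusted p = 3.38e-11). Libraries differed in the order of these genes: of the 26 raised members, 13 were lowest in 60D, 12 were lowest in 60C and 14 were highest in 60A.

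Promoters of this group were read from RefSeq (GRCm38.p6) because its members moved together. A window from 250 bases before to 50 bases after the annotated start was found for 21 of the 27 genes by symbol. The core of the cyclic AMP response element, TGACG on either strand, was present in 71.4% of these genes. It was also present in 65.4% of 26 heat shock genes and 66.7% of 12 cholesterol genes with a promoter. In 20 NF-kB genes and 24 genes of the oxidative and metal response the core was present in 40.0% and 37.5%. The full palindromic element was present in 4.76% of the group and 4.04% of all listed genes. It was present in 9.09% of genes raised at least 16-fold, 7.23% of those raised at least 2-fold and 4.2% of those lowered at least 2-fold. The share with the TGACG core was 51.5% for genes raised at least 16-fold and 49.9% for those raised at least 2-fold. It was 31.9% for those lowered at least 2-fold and 39.1% for all listed genes with a promoter. Among all genes of the promoter table it was 23.0%. The TATA box, TATAAA on the gene's strand, was present in 18.2% of genes raised at least 16-fold, 10.8% of those raised at least 2-fold, 4.41% of those lowered at least 2-fold and 5.15% of all listed genes. Raised and lowered genes had median GC contents of 64.3% and 59.0% in these windows, and a gene can have several windows, so the shares are descriptions and not sites. The 150 bases before the start are shown for 4 of the 15 largest rises, 5′ to 3′ on the gene's strand. All 4 hold a match to the core, so they do not stand for raised genes at large, and Ccn1 is not a member of this group. TGACG (or CGTCA on the other strand) and TATAAA are in capitals.
Fos, chr12:85473740-85473889, plus strand: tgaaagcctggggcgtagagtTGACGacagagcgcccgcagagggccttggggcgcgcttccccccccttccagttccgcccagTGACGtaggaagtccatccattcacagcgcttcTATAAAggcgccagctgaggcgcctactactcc
Fosb, chr7:19310046-19310195, minus strand: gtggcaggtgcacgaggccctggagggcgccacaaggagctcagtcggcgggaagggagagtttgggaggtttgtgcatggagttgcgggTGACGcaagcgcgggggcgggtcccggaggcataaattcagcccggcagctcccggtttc
Nr4a1, chr15:101266696-101266845, plus strand: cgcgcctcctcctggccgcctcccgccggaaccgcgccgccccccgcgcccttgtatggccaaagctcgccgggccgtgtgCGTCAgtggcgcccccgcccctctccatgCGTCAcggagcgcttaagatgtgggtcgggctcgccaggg
Ccn1, chr3:145649986-145650135, minus strand: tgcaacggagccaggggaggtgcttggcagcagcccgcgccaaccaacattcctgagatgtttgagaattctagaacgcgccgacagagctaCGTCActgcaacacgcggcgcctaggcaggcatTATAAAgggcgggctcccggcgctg
In Fos, Fosb and Ccn1 the match nearest to the start ended 62, 56 and 54 bases before it, and in Nr4a1 the nearer of the matches ended 36 bases before it.

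Genes that shorten the life of mRNA or restrain division rose with the transcription factors. Of 17 listed members, 11 rose and 2 fell. Zfp36, whose protein binds AU-rich mRNAs and recruits the deadenylation machinery, had 21.4, 17.4, 23.2 and 16.4 CPM at T0 and 1454, 1005, 1347 and 980 CPM at T60, with no overlap (log2 rise 5.95 ± 0.24, adjusted p = 2.31e-13). The antiproliferative gene Btg2 rose by 4.38 ± 0.24, the endoribonuclease gene Zc3h12a by 3.26 ± 0.22 and Tob2, of the same family as Btg2, by 2.39 ± 0.15. After background subtraction 8 members were up and 3 down. Of the CNOT subunits of the deadenylase complex, the 2 highest, Cnot6 and Cnot7, named here after their values were seen, rose by 0.51 and 0.42, and Cnot3 and Cnot8 were the falls. Neither Cnot6 nor Cnot7 was called after subtraction (adjusted p = 0.216 and 0.2) or with column totals (adjusted p = 0.393 and 0.455). The promoter of Zfp36 holds a match to the CArG box that SRF binds (in capitals), which ended 49 bases before the start.
Zfp36, chr7:28379229-28379378, minus strand: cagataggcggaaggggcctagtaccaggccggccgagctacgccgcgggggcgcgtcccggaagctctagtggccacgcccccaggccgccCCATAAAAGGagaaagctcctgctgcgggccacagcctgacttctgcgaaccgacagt

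**Figure D2:**
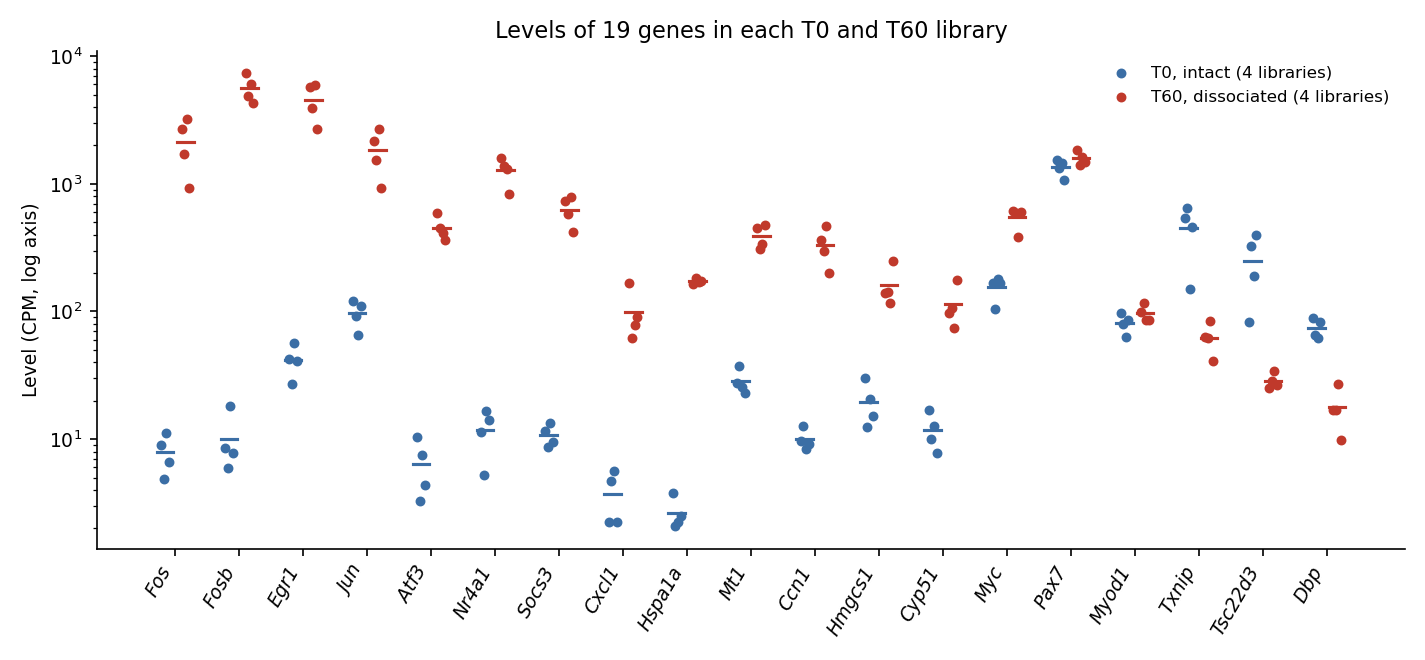
Levels of 19 genes in each library (CPM, log axis), with T0 in blue and T60 in red. Points are libraries and short bars are group means. The groups do not overlap for the early genes on the left, for the sterol genes Hmgcs1 and Cyp51 or for Myc, Txnip, Tsc22d3 and Dbp, and they overlap for Pax7 and Myod1.

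Secreted signals rose in number and size. Of 21 listed ligand genes, 12 rose and 1 fell. Ccn1, a matrix-associated protein gene induced by SRF and YAP, had 9.60, 12.7, 8.38 and 9.08 CPM at T0 and 363, 295, 468 and 201 CPM at T60, a log2 rise of 5.06 ± 0.25 (adjusted p = 2.18e-12). Cxcl1, a chemokine that attracts neutrophils, had 2.26, 4.69, 5.59 and 2.25 CPM at T0 and 167, 62.1, 78.7 and 90.7 CPM at T60, a rise of 4.86 ± 0.47 (adjusted p = 2.90e-08). Thbs1, which encodes thrombospondin 1, rose by 3.60 ± 0.33. Clcf1, a cytokine that signals through gp130, rose by 3.58 ± 0.27. None of these 4 overlapped between the groups, which was a condition for naming them.

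Among 37 listed receptor genes 16 rose and 4 fell, which is a share of rises less far from that of all genes. Tnfrsf12a, the receptor for the cytokine TWEAK, rose most: 3.39, 2.78, 3.91 and 3.78 CPM at T0 became 206, 203, 164 and 226 CPM at T60, a log2 rise of 5.84 ± 0.21 (adjusted p = 4.24e-14). Its libraries were close to each other within both groups. Il4ra, a chain of the receptors for IL-4 and IL-13, rose by 2.25 ± 0.17. Plaur, the urokinase receptor, rose by 2.69 ± 0.41. Of the fallen members, Ntrk3, a neurotrophin receptor gene, had 27.8 to 79.9 CPM at T0 and 0.383 to 1.60 CPM at T60. That gene has an exonic length of 30170 bases and was left with too few counts to be tested after background subtraction.

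Brakes on MAP kinase signalling rose in 10 of 17 listed members and fell in 1. Errfi1, an inhibitor of the EGF receptor, had 201, 239, 287 and 266 CPM at T0 and 2492, 2412, 1651 and 2766 CPM at T60 (log2 rise 3.23 ± 0.21, adjusted p = 7.14e-11). The phosphatase genes Dusp1, Dusp5 and Dusp8 rose by 2.79 ± 0.17, 2.37 ± 0.38 and 2.16 ± 0.32. Spry1, a brake kept on in quiescent satellite cells, was not called at -0.42 ± 0.21 (adjusted p = 0.0912), with overlap between the groups. After background subtraction its value was -0.80 (adjusted p = 0.0122).

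Cytokine signalling through JAK and STAT3 had 15 of 24 listed members up and 3 down. Socs3, an inhibitor of gp130 signalling that STAT3 itself induces, had 11.7, 8.69, 13.4 and 9.53 CPM at T0 and 730, 577, 782 and 418 CPM at T60 (log2 rise 5.88 ± 0.34, adjusted p = 1.35e-11). The kinase gene Pim1 rose by 4.15 ± 0.28 and Cebpb, a factor of inflammatory and acute-phase genes, by 3.80 ± 0.35. No library of these 3 genes overlapped between the groups, which was a condition for naming them. The falls were Tyk2, Pias3 and Socs6, named after their values were seen, at -0.77, -0.76 and -0.57, and none of them was called after background subtraction.

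The NF-kB list had 17 of 24 members up and 3 down, and 17 up and 0 down after background subtraction. Nfkbiz, which encodes the nuclear cofactor IkB-zeta, had 19.01, 17.0, 21.5 and 15.6 CPM at T0 and 536, 364, 453 and 311 CPM at T60 (log2 rise 4.52 ± 0.25, adjusted p = 8.55e-12). Bcl3, another nuclear IkB protein gene, rose by 4.45 ± 0.27, the transcription factor gene Irf1 by 3.20 ± 0.31 and the kinase gene Ripk1 by 3.04 ± 0.17. Ier3, an early gene outside the list that was among the 15 largest rises, was at 0.565, 0.696, 0.559 and 0.809 CPM at T0 and at 44.1, 27.8, 34.4 and 26.1 CPM at T60, a rise of 5.56 ± 0.38 (adjusted p = 1.46e-10).

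A match to the NF-kB consensus on either strand was present in 50.0% of the 20 list members with a RefSeq promoter. Its share was 21.2% among genes raised at least 16-fold, 8.99% among those raised at least 2-fold, 3.57% among those lowered at least 2-fold and 6.04% among all listed genes. The match is in capitals in the promoters of Ier3 and Cxcl1, of which Cxcl1 was chosen for display after its values were seen.
Ier3, chr17:35821563-35821712, plus strand: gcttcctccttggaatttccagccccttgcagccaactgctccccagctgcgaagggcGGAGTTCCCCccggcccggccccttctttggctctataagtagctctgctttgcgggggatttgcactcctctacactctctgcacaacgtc
Cxcl1, chr5:90891095-90891244, plus strand: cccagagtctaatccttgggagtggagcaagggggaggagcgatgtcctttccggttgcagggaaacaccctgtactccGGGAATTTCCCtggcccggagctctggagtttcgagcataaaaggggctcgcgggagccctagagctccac

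Genes of stress responses rose as groups, but each group held members that did not move. Of 33 listed heat shock and chaperone genes 20 rose and 2 fell, and 14 rose and 1 fell after background subtraction. Hspa1a, which encodes the inducible chaperone HSP70, had 3.76, 2.09, 2.23 and 2.52 CPM at T0 and 164, 182, 170 and 174 CPM at T60, a log2 rise of 6.02 ± 0.54 (adjusted p = 1.14e-08). Its near-identical neighbour Hspa1b had a rise of 5.69 ± 0.53, and reads of the pair are hard to tell apart. The co-chaperone genes Dnajb1 and Bag3 rose by 3.37 ± 0.32 and 3.36 ± 0.18. Subunits of the chaperonin CCT and of prefoldin, which fold actin and tubulin, moved little: 4 of 14 rose and 0 fell, Cct7 most at 0.55 ± 0.12. After background subtraction 1 was up and 2 were down.

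The list of the integrated stress response and of unfolded protein genes had 18 of 33 members up and 5 down. Ppp1r15a, whose product helps to restart translation, had 51.4, 60.5, 57.8 and 61.1 CPM at T0 and 1476, 1161, 1147 and 1020 CPM at T60 (log2 rise 4.38 ± 0.20, adjusted p = 8.44e-13). Trib1, a pseudokinase gene, rose by 4.79 ± 0.23. Atf4, the central transcription factor of the integrated stress response, rose by 2.68 ± 0.14, and Hspa5, the main chaperone of the endoplasmic reticulum, by 2.02 ± 0.13. The sestrin genes of this list went both ways: Sesn2 was called up at 1.16, and Sesn1 and Sesn3 were called down at -1.07 and -0.96. These 3 were named after their values were seen. Sesn3 was not called after background subtraction (adjusted p = 0.309), nor was Sesn2 with column totals (adjusted p = 0.0566).

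Of 29 listed genes of the oxidative and metal response 18 rose and 5 fell, and 16 rose and 1 fell after background subtraction. The metallothionein genes Mt1 and Mt2, whose products bind zinc and copper, rose by 3.79 ± 0.26 and 3.12 ± 0.19. Mt1 had 27.7, 37.4, 25.7 and 23.0 CPM at T0 and 447, 311, 337 and 473 CPM at T60, with no overlap. The NRF2 targets Osgin1 and Txnrd1 rose by 3.20 ± 0.25 and 2.71 ± 0.15. Hmox1, the classical oxidative stress gene that encodes heme oxygenase 1, was named after its values were seen: it had 4.90 ± 2.19 CPM at T0 and 4.07 ± 1.19 CPM at T60 and was not called (adjusted p = 0.79).

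The p53 and growth arrest list had 10 of 18 members up and 5 down. Gadd45b rose by 5.05 ± 0.33, the kinase gene Plk3 by 4.46 ± 0.30 and Gadd45g by 3.52 ± 0.37. Cdkn1a, which encodes the cyclin-dependent kinase inhibitor p21, had 5.46, 6.96, 5.03 and 4.95 CPM at T0 and 117, 98.3, 60.04 and 113 CPM at T60 (log2 rise 4.12 ± 0.31, adjusted p = 7.46e-10). Of 13 listed apoptosis genes 4 rose and 4 fell. Mcl1, a short-lived survival protein of the BCL2 family, rose by 2.49 ± 0.15. Bbc3, a pro-death member also known as PUMA, rose by 1.74 ± 0.27. Casp2 fell by 2.20 on the log2 scale (SE 0.26), and was not called after background subtraction (adjusted p = 0.11).

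Cytoskeleton genes with targets of SRF and YAP formed a broadly raised list: 31 of 39 members rose and 1 fell, and 25 rose and 1 fell after background subtraction. The median log2 fold change was 1.14. Tubb6, a tubulin gene, had 25.2, 11.1, 15.1 and 13.9 CPM at T0 and 280, 270, 229 and 390 CPM at T60 (rise 4.17 ± 0.25, adjusted p = 2.11e-11), and Tuba1c rose by 3.36 ± 0.35. Of 45 listed matrix and adhesion genes 17 rose and 3 fell, and 10 rose and 0 fell after background subtraction. Of the falls, the laminin gene Lama4 and the collagen gene Col1a2, the latter named after its values were seen, were called up after subtraction. The subtraction took the T0 counts of both genes to 0, so these up calls rest on the subtraction. With column totals the list had 7 up and 8 down, against 1320 and 4022 of all 8059 genes. The aggrecanase gene Adamts4 rose by 3.41 ± 0.35.

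**Figure D3:**
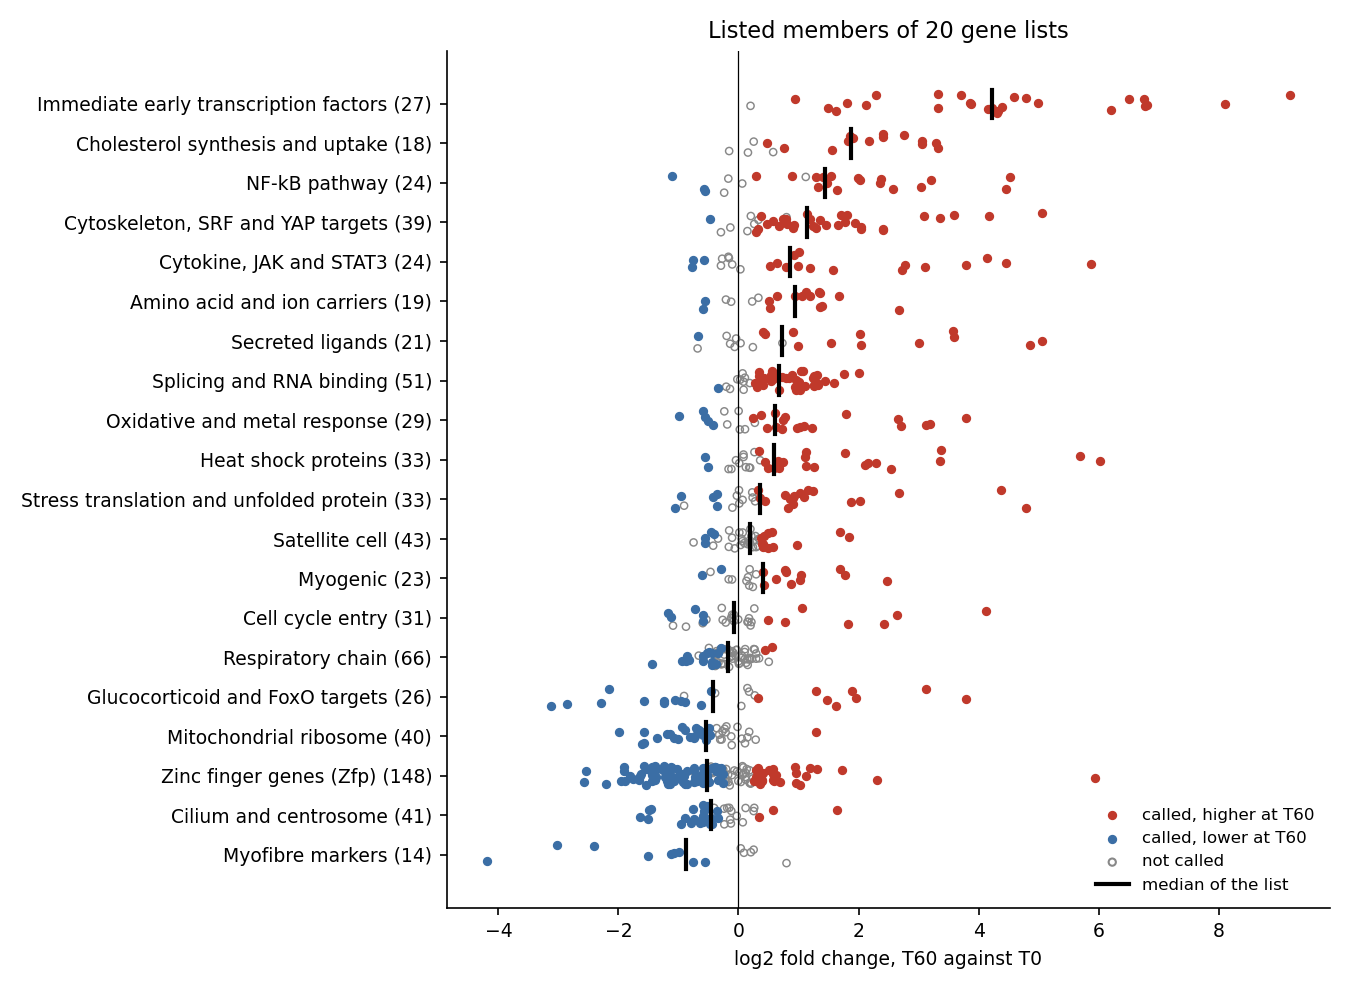
Log2 fold change, T60 against T0, of every listed member of 20 gene lists, with the number of listed members in brackets. Red and blue points were called higher and lower, open points were not called, and black bars are list medians. The medians run from 4.22 for the immediate early transcription factors to -0.87 for the myofibre markers.

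Genes of cholesterol metabolism formed the list with the next largest median rise among those plotted. Cells make cholesterol from acetyl units by way of squalene and lanosterol, and raise the genes of that pathway through the membrane-bound factor SREBP2 when sterol in the endoplasmic reticulum is low. Of 18 listed members 14 rose and 0 fell, with a median log2 fold change of 1.88, and 14 rose and 0 fell after background subtraction, when Lss was called and Insig2, named for this, was not. Hmgcs1, which encodes cytosolic HMG-CoA synthase, had 30.3, 12.3, 20.7 and 15.1 CPM at T0 and 140, 142, 117 and 248 CPM at T60 (rise 3.06 ± 0.26, adjusted p = 3.94e-09). Cyp51, the lanosterol demethylase gene, had 16.9, 10.1, 12.6 and 7.82 CPM at T0 and 97.9, 106, 74.6 and 178 CPM at T60 (rise 3.30 ± 0.29, adjusted p = 6.66e-09). In both genes the groups did not overlap and 60D was the highest library.

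Msmo1, a sterol oxidase gene of the next steps, rose by 3.05 ± 0.42. Other members, named after their values were seen, were Sqle (squalene epoxidase, 2.75 ± 0.34) and Insig1, which retains SREBP2 in the endoplasmic reticulum and is itself a sterol-responsive gene (2.41 ± 0.19). Srebf2, the gene of SREBP2, also rose by 1.55 ± 0.12, from 130 ± 13.4 to 382 ± 54.0 CPM. Lss, Nsdhl and Scap were not called, with values from -0.16 to 0.58. The members kept a common order of libraries at T60. Of the 14 raised genes, 12 were highest in 60D and 12 were lowest in 60C, while of the 26 raised early transcription factor genes 13 were lowest in 60D and 12 in 60C.

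Of the 12 list members with a RefSeq promoter, 91.7% held CCAAT on either strand, against 42.2% of all listed genes. The sterol element, TCACCCCA on either strand, was present in 16.7% of them and in 1.73% of all listed genes. The promoter of Hmgcs1, chosen for display after its values were seen, holds both, in capitals.
Hmgcs1, chr13:119690201-119690350, plus strand: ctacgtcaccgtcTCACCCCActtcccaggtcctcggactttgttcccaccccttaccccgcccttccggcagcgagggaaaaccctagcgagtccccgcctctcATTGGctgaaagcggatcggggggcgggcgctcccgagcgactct

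At the other time points, which share the T0 libraries with this comparison, the same genes had the following mean levels. Cyp51 had 11.9, 11.4, 39.1, 114, 102 and 66.6 CPM in the order T0, T15, T30, T60, T90, T120, while Hmgcs1 had 19.6, 17.5, 72.4, 162, 127 and 87.2 CPM. Neither was called at T15 (adjusted p = 0.999 for both genes). Fos had 7.93, 1270, 2607, 2128, 555 and 283 CPM, so its highest mean was at T30, and Socs3 had 10.8, 126, 415, 627, 229 and 114 CPM, with its highest at T60. Myc had 154, 194, 186, 549, 1094 and 1223 CPM. The steps between these neighbouring means were not tested here.

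**Figure D4:**
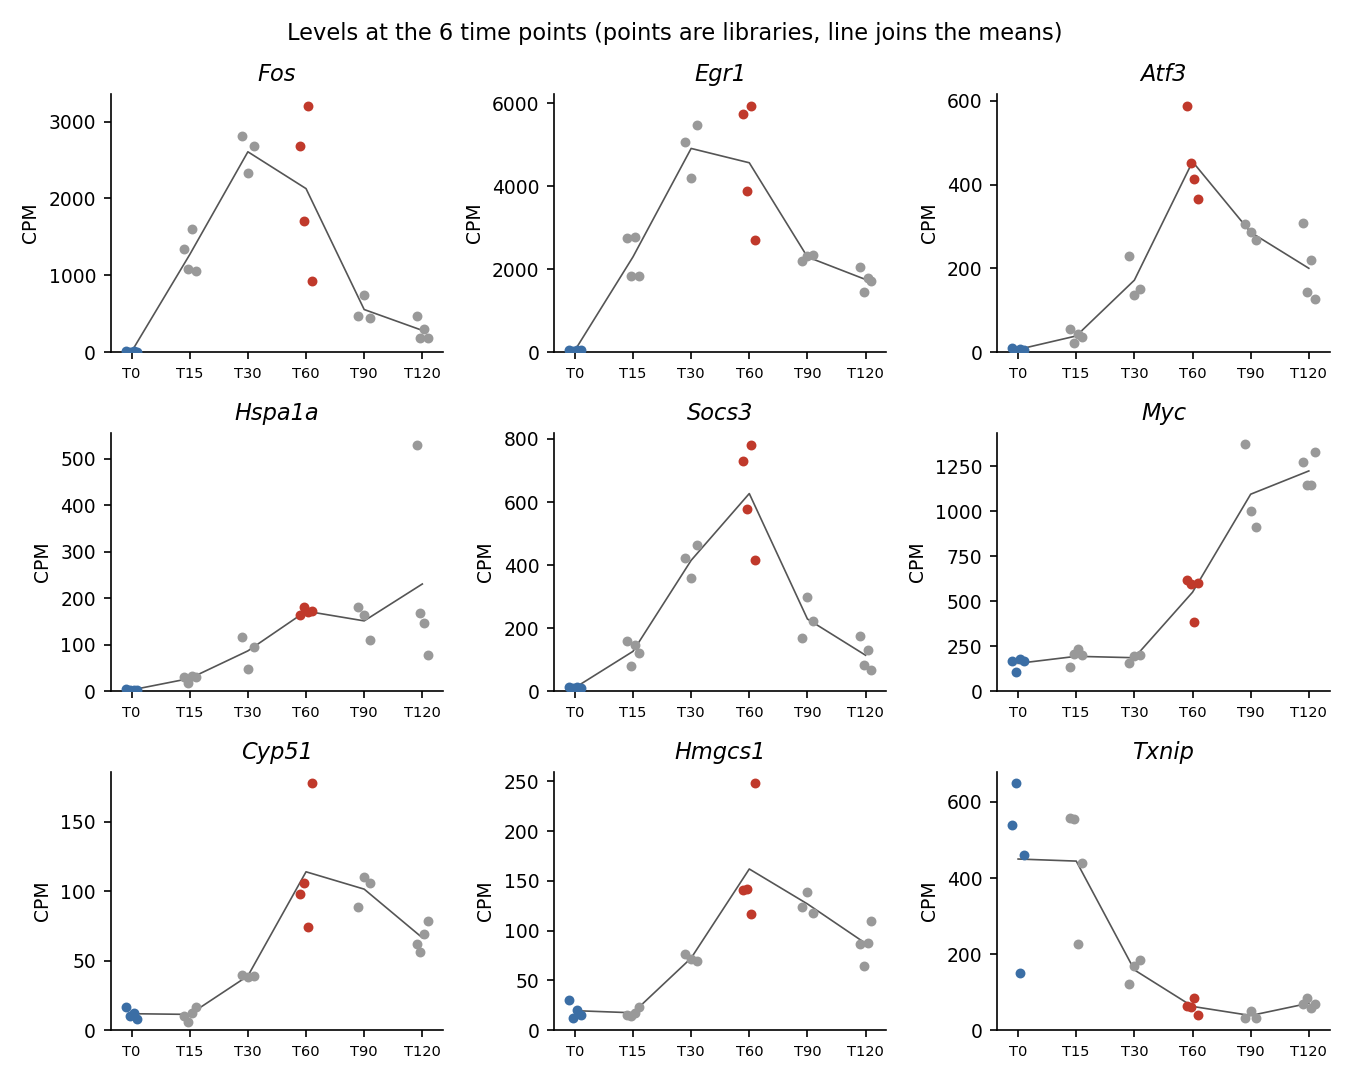
Levels (CPM, linear axes from 0) of 9 genes at the 6 time points. Points are libraries (3 or 4 per time point, T0 blue, T60 red, others grey) and the line joins the means. Cyp51 and Hmgcs1 are near their T0 level at T15 and have their highest means at T60, whereas Fos and Egr1 have theirs at T30.

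Transport and fuel genes rose in part. Of 19 listed amino acid and ion carriers 13 rose and 2 fell. Slc38a2, a sodium-coupled amino acid carrier gene known to respond to osmotic stress and amino acid lack, had 134, 158, 109 and 122 CPM at T0 and 898, 832, 650 and 983 CPM at T60 (log2 rise 2.68 ± 0.16, adjusted p = 3.08e-11). Slc5a3, a myo-inositol carrier gene of the osmotic response, rose by 1.67 ± 0.21, the zinc carrier gene Slc39a14 by 1.39 ± 0.22 and the phosphate carrier gene Slc20a1 by 1.37 ± 0.22. Of 24 listed glycolysis and fuel genes 15 rose and 5 fell. Hk2, the hexokinase 2 gene, rose by 2.41 ± 0.29, Slc2a1, the glucose carrier GLUT1, by 1.97 ± 0.32, and Pfkp, a phosphofructokinase gene, by 1.81 ± 0.16. Pdk4, which blocks entry of pyruvate into mitochondria, rose by 1.89 ± 0.19.

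RNA processing genes rose in most members and by small amounts. Of 51 listed splicing and RNA-binding genes 41 rose and 1 fell (median log2 fold change 0.68), and after background subtraction 28 rose and 7 fell. Tra2b, a splicing regulator gene, had 71.3, 69.2, 72.1 and 67.0 CPM at T0 and 312, 263, 258 and 290 CPM at T60 (rise 2.01 ± 0.12, adjusted p = 3.13e-11). Hnrnpab, Srsf3 and Hnrnpu rose by 1.76 ± 0.14, 1.59 ± 0.13 and 1.44 ± 0.11. Of 51 listed chromatin genes 30 rose and 7 fell, with 18 up and 9 down after background subtraction. Kdm6b, a demethylase of the repressive mark on histone H3 lysine 27, rose by 2.83 ± 0.15, from 217 ± 16.6 to 1546 ± 197 CPM. The remodeller genes Chd1 and Chd4 rose by 1.68 ± 0.13 and 1.58 ± 0.10, and Brd2, an acetyl-lysine reader gene, by 1.30 ± 0.11.

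Genes of the translation apparatus divided by subunit. Of 48 listed initiation and elongation factor genes 22 rose and 5 fell, and 13 rose and 10 fell after background subtraction. Eif1a had 24.6, 21.0, 22.1 and 19.4 CPM at T0 and 174, 159, 129 and 192 CPM at T60 (log2 rise 2.91 ± 0.13, adjusted p = 7.63e-13). Eif3j1, Eif4a1 and Eif2s2 rose by 2.32 ± 0.18, 1.63 ± 0.13 and 1.38 ± 0.09. Subunits of eIF2B, the exchange factor that reloads eIF2 with GTP and that the integrated stress response inhibits, were among the falls. Eif2b1, Eif2b3 and Eif2b4, named after their values were seen, fell, at -1.03, -1.01 and -1.01, and were called down after subtraction as well (adjusted p = 0.0422, 0.0413 and 0.00241). None of these was called in edgeR with all libraries thinned to the smallest total (adjusted p = 0.0798, 0.17 and 0.0564). Eif2b3 was also not called against a 1.5-fold change (adjusted p = 0.0533). The other falls were Eif2b5 and Eef2k, at -0.32 and -0.66, while the eIF2B subunit gene Eif2b2 was not called (-0.07).

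Ribosome biogenesis genes had 20 of 56 members up and 6 down, and 9 up and 7 down after background subtraction. Nop58, a core protein of the snoRNPs that methylate ribosomal RNA, rose by 2.28 ± 0.16, and Noc4l and Nolc1 rose by 1.43 ± 0.15 and 1.37 ± 0.11. Of 22 listed tRNA synthetase genes 3 rose and 5 fell. Aars, which charges alanine tRNA, rose by 1.04 ± 0.13, while Sars and the scaffold genes Aimp1 and Aimp2 fell, at -0.48, -0.66 and -0.79. Of 77 cytosolic ribosomal protein genes 22 rose and 0 fell, a share near that of all genes, with a median of 0.25 that became -0.08 with column totals alone and -0.06 after background subtraction. Many of these genes have processed pseudogenes that can share their reads.

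Genes of the clock and of the response to glucocorticoids and FoxO factors went in both directions. Of 18 listed clock genes 11 rose and 5 fell. Nfil3, a repressor of D-box genes, had 13.4, 10.3, 16.8 and 12.7 CPM at T0 and 318, 245, 229 and 293 CPM at T60 (log2 rise 4.37 ± 0.24, adjusted p = 8.55e-12). Dbp, the activator that binds the same D-box, had 88.6, 65.0, 61.7 and 82.1 CPM at T0 and 17.0, 17.0, 27.3 and 9.90 CPM at T60, and it fell by 2.07 (log2, SE 0.31, adjusted p = 1.01e-05). The repressor genes Cry1 and Bhlhe40 rose by 2.28 ± 0.30 and 2.08 ± 0.22. The counts were 11 and 4 after background subtraction.

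Of 26 listed glucocorticoid and FoxO targets 8 rose and 12 fell, and 7 rose and 12 fell after background subtraction. Tsc22d3, a glucocorticoid-induced gene also called Gilz, had 82.6, 327, 189 and 396 CPM at T0 and 25.2, 28.3, 34.1 and 26.6 CPM at T60 (it fell by 3.13 in log2 units, SE 0.41, adjusted p = 2.21e-06). Txnip, a thioredoxin-binding protein gene that restrains glucose uptake, had 539, 649, 151 and 460 CPM at T0 and 63.2, 61.6, 83.8 and 41.1 CPM at T60 (it fell by 2.85, SE 0.35). The T0 libraries spread widely for both, with 0A lowest for Tsc22d3 and 0C lowest for Txnip, and all 4 stayed above the T60 libraries. Klf15, a glucocorticoid-induced factor of muscle metabolism, fell by 2.30 (SE 0.33) and Pik3ip1, a brake on PI3 kinase, fell by 2.15 (SE 0.27), both still called after subtraction. The rises in the list included Mt1, Mt2 and Pdk4, which other lists hold as well.

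Genes that define the satellite cell changed little beside these groups. Of 43 listed satellite cell and quiescence genes 13 rose and 4 fell. After background subtraction 4 rose and 7 fell, against 19.5% and 15.9% of all genes. With column totals 3 rose and 11 fell, against 1320 and 4022 of all 8059 genes. Pax7, their defining transcription factor gene, had 1523, 1321, 1463 and 1067 CPM at T0 and 1834, 1408, 1625 and 1484 CPM at T60. The groups overlapped and the log2 fold change was 0.24 ± 0.16 (adjusted p = 0.204). Calcr, the calcitonin receptor gene of quiescent satellite cells, was at 0.20 ± 0.14 (adjusted p = 0.237), and the Notch effector gene Hes1 at 0.02 ± 0.31 (adjusted p = 0.971). Sdc4, a heparan sulphate proteoglycan gene of the satellite cell surface, rose by 1.85 ± 0.18, Des, which encodes the intermediate filament desmin, by 1.70 ± 0.14 and Notch1 by 0.97 ± 0.14. Pax3, the paralogue of Pax7, rose by 0.58 ± 0.13, from 34.6 ± 4.50 to 51.7 ± 5.05 CPM, and was not called with column totals (0.25, adjusted p = 0.123).

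Of 23 listed myogenic genes 11 rose and 2 fell. The determination factor Myod1 had 98.0, 79.5, 63.1 and 85.3 CPM at T0 and 98.8, 116, 85.7 and 85.5 CPM at T60, which overlapped (log2 fold change 0.24 ± 0.19, adjusted p = 0.303). Myf5 was called up at 0.41 ± 0.17 (adjusted p = 0.0401, and 0.0563 with the letters as a block) with overlap, and was not called after subtraction (0.05, adjusted p = 0.82). Myog, which marks differentiation, was at 3.07 to 47.3 CPM at T0 and 6.58 to 36.9 CPM at T60 and was not called (-0.47 ± 0.85, adjusted p = 0.662). The inhibitors of bHLH factors Id3 and Id1 rose by 2.48 ± 0.16 and 1.77 ± 0.31, and Mef2d by 1.05 ± 0.08. Among 31 listed cell cycle genes 7 rose and 5 fell. Myc had 168, 104, 179 and 166 CPM at T0 and 617, 596, 386 and 599 CPM at T60 (rise 1.83 ± 0.19, adjusted p = 1.15e-07). Odc1, the polyamine synthesis gene that MYC induces, rose by 2.42 ± 0.24 and Ccnl1, a cyclin of RNA processing, by 2.64 ± 0.16. Ccnd1, the cyclin of early cell cycle entry, was not called (-0.08 ± 0.31, adjusted p = 0.851).

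The largest falls were of a different kind. Of the 20 genes lowered at least 16-fold, 13 were predicted models and 3 were among the background genes. Gm10800, a predicted model on chromosome 2 named after its values were seen, had 5043, 4794, 6927 and 3341 CPM at T0 and 15.6, 102, 2.61 and 3.32 CPM at T60. Its mean was 9022 CPM at T30, 237 CPM at T90 and 1727 CPM at T120. Muc16, an epithelial mucin gene that is also a background gene, had 77.3, 21.6, 84.4 and 33.5 CPM at T0, and at T60 only 60A held a count of it. Sp110, a nuclear body protein gene, fell from 90.9 ± 45.1 to 2.21 ± 1.31 CPM and Sfi1, a centrosome gene, from 541 ± 241 to 35.3 ± 12.1 CPM. In Muc16, Sp110 and Sfi1 the T0 libraries 0A and 0C were the highest, and these had the highest background density. The part of the background in these falls was not tested beyond the subtraction, after which Sp110 and Sfi1 were still called and Muc16 could not be tested.

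Of 148 listed zinc finger genes named Zfp 86 fell and 26 rose, and 58 fell and 15 rose after background subtraction, against 28.3% and 15.9% of all genes down in the respective tests. Zfp113, Zfp866 and Zfp426, which have the structure of DNA-binding zinc finger repressors, fell, at -2.58, -2.54 and -2.21 (SE 0.32, 0.25 and 0.24). Zfp866 had 61.2, 69.0, 58.7 and 61.6 CPM at T0 and 11.8, 11.2, 13.6 and 6.39 CPM at T60. Zfp131 went the other way with a rise of 2.30 ± 0.18.

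Of 40 listed genes of the mitochondrial ribosome 23 fell and 1 rose, and 8 fell and 0 rose after subtraction. Mrps2 fell by 1.57 on the log2 scale (SE 0.22) and was still called after subtraction (adjusted p = 9.97e-05), whereas Mrpl33, which fell by 1.98 (SE 0.22), was not (adjusted p = 0.107). Outside that list, Mtif3, a mitochondrial translation initiation factor gene and among the 15 largest falls, had 34.1, 39.8, 42.7 and 38.4 CPM at T0 and 6.64, 7.94, 9.61 and 4.15 CPM at T60, and fell by 2.45 (SE 0.35, adjusted p = 5.36e-06), which was also called after subtraction (adjusted p = 0.012). Of 66 nuclear genes of the respiratory chain 15 fell and 2 rose, and 23 fell and 0 rose after subtraction. Dmac2, an assembly factor gene of that list, fell by 1.45 (SE 0.19) and Ndufs3, a complex I subunit gene, fell by 0.94 (SE 0.19).

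Cilium and centrosome genes fell in 24 of 41 members and rose in 3, but after background subtraction 7 fell and 2 rose. Rpgrip1l, a transition zone gene, had 42.9, 40.2, 44.1 and 42.1 CPM at T0 and 11.9, 13.9, 17.9 and 10.6 CPM at T60 (it fell by 1.64, SE 0.26), yet its value after subtraction was -0.10 (adjusted p = 0.968). Cep89 fell by 1.51 (SE 0.22) and was not called after subtraction. Arl13b, a GTPase gene of the ciliary membrane, rose by 1.64 ± 0.19.

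**Figure D5:**
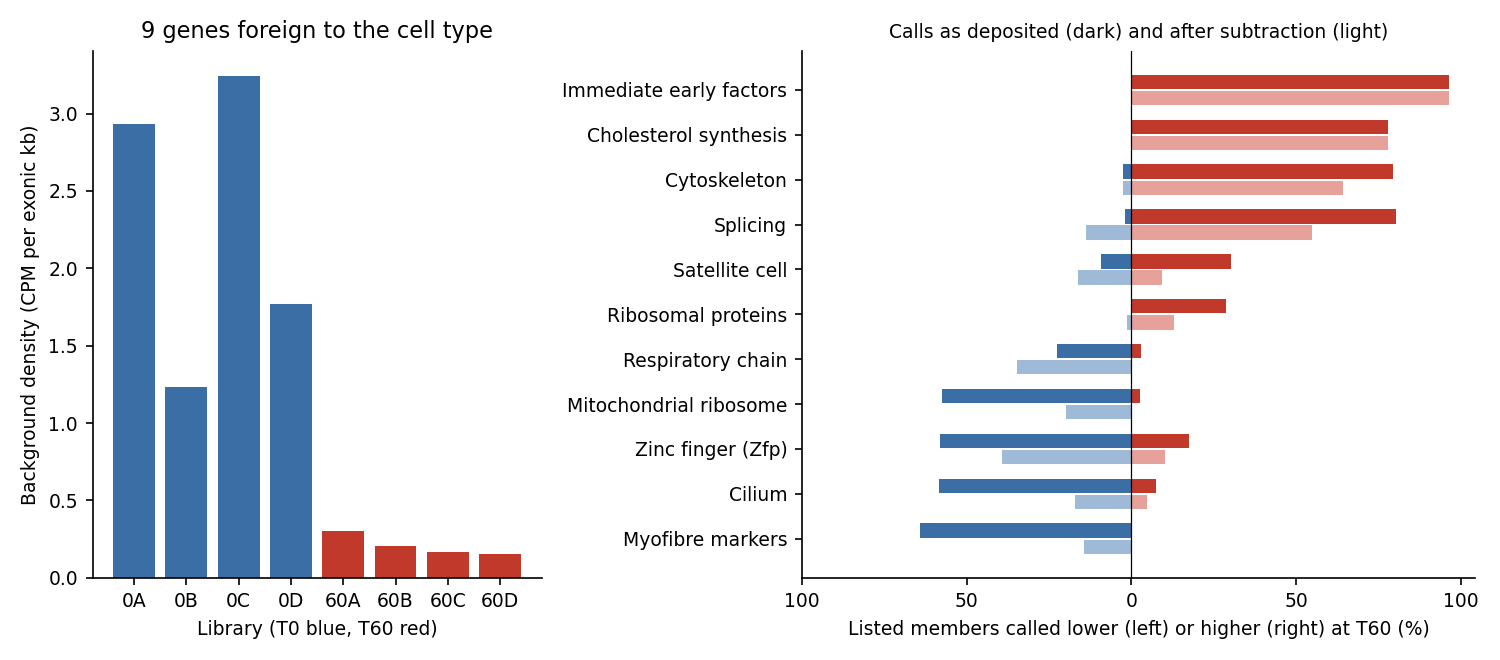
Left, background density (CPM per exonic kb) in the 4 T0 libraries (blue) and the 4 T60 libraries (red). Right, percent of listed members of 11 lists called lower (left of 0) and higher (right of 0) at T60 in the deposited counts (dark) and after background subtraction (light). The early and cholesterol lists have 26 and 14 members called higher before and after subtraction. The falls of the cilium and myofibre lists shrink from 24 to 7 and from 9 to 2 members. The subtraction took more from the T0 libraries, which favours rises in genes low at T0.

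Markers of other cell types were taken from the same libraries. In the bulk RNA of a sample, fewer cells of a type and less RNA per cell cannot be told apart. Of 14 listed myofibre markers 9 fell and 0 rose, and 2 fell after background subtraction. They summed to 2082 to 2233 CPM at T0 and 1589 to 1760 CPM at T60. Endothelial markers (11 of 18 listed) summed to 258 to 395 CPM at T0 and 182 to 332 CPM at T60. Of these, 2 were down and 0 up, and after subtraction 0 were down and 2 up. Vwf, which encodes von Willebrand factor and was named after its values were seen, went from called down to called up. The subtraction took its T0 counts to 0, so this up call rests on the subtraction. With 0.5 of the background subtracted, Vwf was not called in edgeR (-1.01, adjusted p = 0.318). Markers of fibro-adipogenic progenitors (9 of 18 listed) summed to 2192 to 3520 and 2994 to 3229 CPM, with 1 down and 0 up, and after subtraction 1 down and 1 up. Of immune markers 1 of 20 was listed, Cd68, a lysosomal gene of macrophages, which rose by 0.95 ± 0.32 (adjusted p = 0.0152, and 0.0527 without 60A) from 10.2 ± 1.12 to 19.8 ± 5.74 CPM. Smooth muscle and pericyte markers (9 of 13 listed) had 4 up and 0 down, or 2 up and 0 down after subtraction. They summed to 1443 to 1705 CPM at T0 and 2755 to 3073 CPM at T60 with no overlap, most of it from Des and Notch3, which satellite cells express as well. Of the 13 tenocyte and glial markers 2 were listed, with Pmp22 up, and of the 6 erythroid markers 0 were listed. The part of these cells in the results was not tested.

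Neat1, the nuclear RNA that builds paraspeckles, had 791, 837, 756 and 819 CPM at T0 and 4185, 2870, 2575 and 3593 CPM at T60 (log2 rise 2.05 ± 0.15, adjusted p = 6.34e-10). Its neighbour Malat1, the most abundant nuclear long RNA in many cells, rose by 0.47 ± 0.17 (adjusted p = 0.025) and had 0.07 after subtraction (adjusted p = 0.733). Of 80 listed snoRNA genes 0 were called, with a median standard error of 0.53 against 0.15 for protein-coding genes. At an unadjusted p under 0.05 edgeR gave 1 of them, and at an adjusted p under 0.05 DESeq2 and limma-voom called 0. Of 108 unreviewed models of the annotation class TEC 58 rose and 24 fell, and of 47 processed pseudogenes 20 rose and 1 fell.

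The genes with the largest rises were short and had few introns. Protein-coding genes raised at least 16-fold (39 genes) had a median of 3 introns (gaps between the merged exons of all transcripts), 2.89 kb of exon and a genomic span of 5.36 kb. Those raised at least 2-fold (697 genes) had 7 introns and a span of 18.7 kb, and those not called (3312 genes) 11 introns and 35.2 kb. Genes lowered at least 2-fold (569 genes) had 10 introns, 6.72 kb of exon and a span of 27.3 kb. The 213 of these that were still lowered after background subtraction had 7 introns, 4.6 kb of exon and a span of 16.4 kb. The subtraction takes more counts from genes with more exon, so it favours short genes among those still lowered. Among genes of up to 3.05 kb of exon, the number called down went from 269 to 289 after subtraction. Among genes of at least 8.77 kb it went from 534 to 177.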

How the data were processed

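RNA of 22 bulk libraries was counted by gene, and the 4 T0 and 4 T60 libraries were compared. The values tested are raw counts per gene in the deposited table, which the authors made with cutadapt 1.11 and featureCounts 1.4.5-p3 on mm10, per the submitters' processing notes. The aligner, annotation release and strand setting were not given in the sources used here, so antisense and overlapping genes cannot be told apart. Deposited score columns hold counts divided by the authors' size factors and served only to obtain those factors. Deposited log2 fold changes and p-values of the authors' deposited table were only compared with the calls made here.

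TMM-scaled counts of all 22 libraries were fitted with edgeR 4.0.16 (R 4.3.3) by its quasi-likelihood test with time as factor, so that the groups share 1 estimate of the spread. T60 was contrasted with T0 and p-values were adjusted by Benjamini-Hochberg over 8059 genes, with calls at 0.05. Standard errors are the fold change divided by the square root of F. The fit was tested on simulated data. Background subtraction took the median density of the 9 background genes times merged exon length (GENCODE vM21) from each gene's counts. A fitted value of a gene that reached 0 in a group by subtraction is not a bound, so mainly its call is given. Same-letter libraries did not deviate together, so letters were not used as pairs, although this does not tell what the letters stand for.

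Members and lists were chosen with earlier results of these data known. Named genes were up to 4 called members per list with the largest change and no overlap, the 15 largest rises and 15 largest falls still called after subtraction at a mean of at least 20 CPM, and a set of fixed genes. Any other gene was named after its values were seen. Alternatives were other scalings, filters, tools (DESeq2 1.42.0, limma 3.58.1), subtraction and libraries left out. Depth at T0 was below that at T60, and no interval is given for it. Some items are not reported here.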

Additional observations from a re-analysis of the deposited data

Results flagged for a closer look

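In 4 libraries a group, a library was set apart where its gap to the nearest other exceeded Dixon's 95% limit, which chance gives in about 1 of 20 groups. Of 316 groups tested, 20 were set apart. At T0 these were 0C for Csrnp1 (7.54 CPM), Clcf1 (66.2), Tyk2 (30.2), Eif2b1 (26.3), Nolc1 (139) and Notch1 (258), and 0B for Myc (104), Sars (70.4) and Malat1 (39110). At T60 these were 60A for Zc3h12a (64.9 CPM), Pias3 (15.2), Plk3 (163), Slc2a1 (57.4), Muc16 (0.0671, 1 count) and Notch3 (1121), 60C for Tob2 (335) and Myc (386), 60D for Nsdhl (32.1), and 60B for Eif2b3 (18.4) and Gm10800 (102). In all of these genes except Nsdhl the T0 and T60 libraries did not overlap, which was a condition for naming many of them.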

How the results depend on the processing

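Of the 2252 rises and 2281 falls, column totals alone gave 1320 and 4022, and a test against a 1.5-fold change gave 944 and 661 (1605 in all). Background subtraction gave 1283 falls (2854 calls in all), and thinning all libraries to the smallest total, chosen after seeing the data, gave 1318 falls. Leaving out 1 library gave 4074 to 4357 calls, with 2055 to 2210 rises and 1980 to 2160 falls. The replicate block on the library letters gave 4558 calls (2224 up and 2334 down), of which 2203 and 2247 were among the unblocked calls. Same-letter deviations from the group mean correlated at -0.121, -0.164, -0.151 and -0.19, and those of different letters at -0.168 to 0.251. With 4 libraries a group these values cannot show whether a letter stands for a shared animal or batch. Among the 158 named genes the block ended the calls of Myf5 (adjusted p = 0.0563) and Eif2b5 (0.0522). Calls of Cnot6, Cnot3, Eif2b5, Aimp2, Myf5, Cd68, Notch3, Malat1, Col1a2 and Insig2 were lost when 1 or another library was left out. Column totals ended the calls of Cnot6, Cnot7, Cct7, Sesn2, Pax3, Myf5, Cd68, Notch3, Pmp22, Malat1 and Insig2.

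With column totals, log2 fold changes that turned were Pax7 -0.09, Myod1 -0.08, Lss -0.20, Calcr -0.13 and Hes1 -0.30. After background subtraction, log2 fold changes that turned were Pax7 -0.18, Myod1 -0.10, Tyk2 0.23, Socs6 1.37, Hmox1 1.70, Scap 0.02, Calcr -0.13 and Hes1 -0.28, with Lama4 7.04, Col1a2 8.96 and Vwf 8.79, whose T0 counts the subtraction took to 0, so that these values are no bound. With subtraction and the 8 libraries fitted alone, log2 fold changes that turned were Pax7 -0.19, Myod1 -0.11, Tyk2 0.21, Socs6 1.31, Hmox1 1.54, Scap 0.00, Calcr -0.14 and Hes1 -0.28, with Col1a2 8.88 and Vwf 8.71. With 0.5 of the background subtracted, log2 fold changes that turned were Hmox1 0.33 and Hes1 -0.11. Without 0A and 0C, log2 fold changes that turned were Hmox1 0.38 and Ccnd1 0.13. With thinned libraries, log2 fold changes that turned were Hmox1 0.18, Lss -0.08 and Hes1 -0.14. With limma-voom, log2 fold changes that turned were Hes1 -0.06. With a filter at 20 CPM, log2 fold changes that turned were Hes1 -0.01. With the replicate block, log2 fold changes that turned were Hes1 -0.08. With 1 library left out, those that turned were Hmox1 0.09 (without 0A), Lss -0.02 (without 0B), Lss -0.16 (without 60D), Hes1 -0.07 (without 0D), Hes1 -0.30 (without 60C), Myog 0.15 (without 0D), Ccnd1 0.21 (without 0A), Ccnd1 0.09 (without 60A) and Ccnd1 0.00 (without 60D). Over all such omissions Hmox1 ranged from -0.39 to 0.09, Lss from -0.16 to 0.32, Hes1 from -0.30 to 0.24, Myog from -1.14 to 0.15 and Ccnd1 from -0.34 to 0.21. The causes of these turns were not tested.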

Other observations

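Lists of protein breakdown showed no common direction. Of 37 proteasome subunit genes 8 rose and 4 fell (median log2 fold change -0.08), of 40 autophagy and lysosome genes 11 rose and 8 fell (0.05), and of 69 F-box and ubiquitin-specific protease genes 24 rose and 23 fell (-0.04). Of 21 listed imprinted and long noncoding genes 7 rose and 3 fell, and 2 rose and 2 fell after background subtraction.

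The authors' deposited table called 2377 genes higher and 2179 lower at T60. Of these, 2246 and 2126 were called in the same direction from the raw counts here, and 0 in opposite directions.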
